A study of Mus musculus with 2 samples.

Results

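The Gjb6 or Fgf3 supporting cells of the postnatal day 2 (P2) mouse utricle were 238 of the 923 supporting cells (SCs) found in this library (25.8%, exact 95% binomial interval 23.0 to 28.7%), of 4081 cells that passed the filters, of 6251 barcodes at P2 and of 21887 barcodes at both ages. They were chosen by their own transcripts. A cell was kept with at least 500 genes, at least 1000 unique molecular identifiers (UMIs, which tag single transcript molecules) and at most 15% mitochondrial UMIs. It counted as an SC with at least 1 UMI of Epcam and at least 2 of Sox2, at most 1 each of the hair cell (HC) genes Pou4f3 and Atoh1, and fewer than 10 UMIs of the crista gene Zpld1 per 10,000. Members then held at least 3 UMIs of Gjb6 and Fgf3 in sum, fewer than 5 UMIs of Tectb per 10,000, and fewer than 3 of Il33 and Dlk1 in sum.

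The study profiled utricular sensory epithelium of wild-type (WT) mice in droplets, cell by cell, with 1 library from embryos (embryonic day 14, E14) and 1 from P2 pups and no treatment. Otolithic membranes were taken off by hand, and the epithelium was lifted with thermolysin and dissociated with Accutase. The methods describe tissue gathered from several embryos or pups per harvest, and the number behind each library is not given in the sources used here. The P2 library held 57003553 UMIs and the E14 library 122892080, and 23 barcode sequences occurred in both.

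Gjb6 encodes connexin 30, which together with connexin 26 (Gjb2) forms the gap junctions that couple the SCs of the inner ear. These channels let ions and small molecules pass between neighbouring cells. Fgf3 is a secreted fibroblast growth factor known for its role in forming the otocyst. SCs surround the HCs, secrete the extracellular matrix that lies over the epithelium, and are held in the SC state by Notch signals from HCs.

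In this report a level is the sum of a gene's UMIs over a group of cells, given per 1000000 UMIs of that group (CPM) with an exact 95% Poisson interval. The ratio of 2 levels carries an exact conditional binomial interval. All intervals cover counting error only. The cells of 1 library are not replicates of an age, so no test was made and no p-value is given. The 685 other P2 SCs were the comparison group. They comprised 65 cells with enough Gjb6 and Fgf3 that the other limits left out (18 by Tectb, 47 by Il33 and Dlk1), 148 Tectb-high cells, 87 Il33 or Dlk1 cells, and 385 remaining SCs. Because the rule kept Tectb, Il33 and Dlk1 cells out, genes that go with these transcripts are low in members by construction.

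The members held a median of 13721 UMIs (lowest 4082, highest 101285), against 10151 in the other SCs and 9330 in the remaining SCs. A limit set in UMIs picks deeper cells, so depth moved with membership. Within the middle depth range of the members (10367 to 22728 UMIs, 118 members and 224 other SCs) the ratio of the marker Anks1b was 2.25, against 1.87 over all cells. Median mitochondrial shares were 4.07% in members and 3.97% in the other SCs, and 2.10% and 3.50% of these cells were among the 5% of cells with the highest doublet scores. For HCs (846 cells with at least 2 UMIs of Pou4f3 and at least 1 of Myo7a) this share was 17.1%.

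The transcripts that define the members varied widely from cell to cell. Gjb6 (chr14:57123303-57133611, minus strand; GENCODE M21 annotation of GRCm38, to which the counts themselves are not tied) ranged from 0 to 23 UMIs per member with a median of 3. Fgf3 (chr7:144838083-144844436, plus strand) ranged from 0 to 23 with a median of 2, and their sum from 3 to 30 with a median of 5. Both transcripts were found in 186 members (78.2%), Gjb6 alone in 35 (14.7%) and Fgf3 alone in 17 (7.14%). At so few UMIs per cell, a cell listed with 1 of the 2 genes may have held both.

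**Figure D1:**
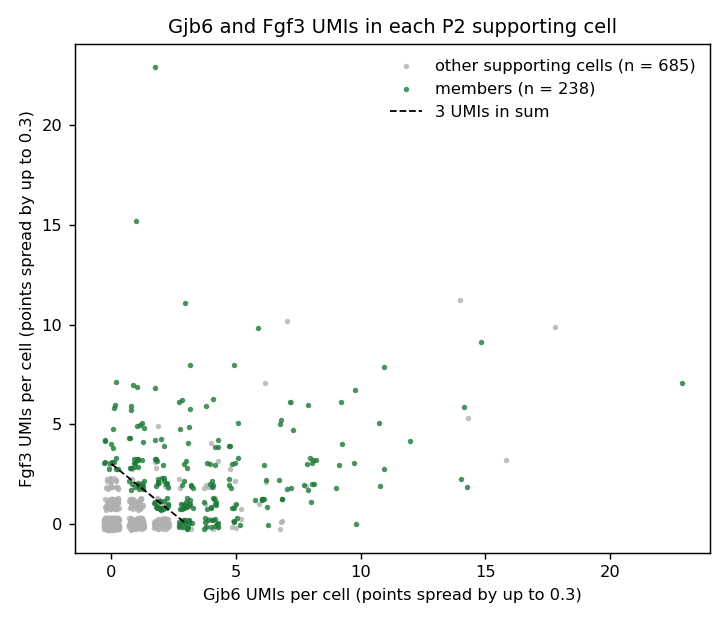
UMIs of Gjb6 (x axis) and of Fgf3 (y axis) in each of the 923 P2 supporting cells, with points spread by up to 0.3 UMIs so that equal counts can be told apart. The 238 members (green) lie on or above the dashed line at 3 UMIs in sum, most of them between 3 and 10 UMIs, and the grey cells above it are the 65 that the Tectb or the Il33 and Dlk1 limits left out.

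Gjb6 reached 195 CPM (182 to 208) in members and 58.3 CPM (53.4 to 63.5) in the other SCs, and Fgf3 reached 137 CPM (126 to 148) and 27.9 CPM (24.6 to 31.6). The rule chose these differences, so they describe the members and support nothing. Within the other SCs, Gjb6 stood at 142 CPM in the 65 left-out cells, 46.2 CPM in Tectb-high cells, 34.6 CPM in the remaining SCs and 23.4 CPM in Il33 or Dlk1 cells. HCs, which should lack the gap junction gene, held 51.2 CPM of Gjb6 and 29.2 CPM of Fgf3, with a median of 0 UMIs per cell for both genes and a highest cell of 34 and 24 UMIs.

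Shares of cells with a UMI depend on depth, so each cell was also thinned to 4500 UMIs, which left 237 members, 521 other SCs and 825 HCs and dropped 1, 164 and 21 shallower cells. After thinning, Gjb6 was found in 61.6% of members, 23.6% of other SCs and 6.06% of HCs, and Fgf3 in 48.5%, 12.1% and 5.94%. Both shares in the other SCs, which include the left-out cells, lay above those of HCs.

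The third given marker, Anks1b, encodes a scaffold protein with ankyrin repeats and is not part of the rule. It stood at 385 CPM (367 to 404) in members and 206 CPM (197 to 216) in the other SCs, a ratio of 1.87 (1.75 to 2.00). Thinned shares were 81.4% of members, 52.6% of other SCs and 25.7% of HCs. Per member, its median was 3.72 per 10,000 UMIs and its highest value 11.1, and no single cell gave more than 1.88% of its UMIs. Anks1b was also high in the left-out cells (324 CPM), followed by the remaining SCs (198 CPM), Il33 or Dlk1 cells (152 CPM) and Tectb-high cells (118 CPM). It was at 137 CPM in HCs and at 5.48 CPM in Zpld1-high cells. Anks1b thus marked the members by degree rather than by presence. It was taken up as a marker from a clustering of these same cells, so its ratio is a description.

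**Figure D2:**
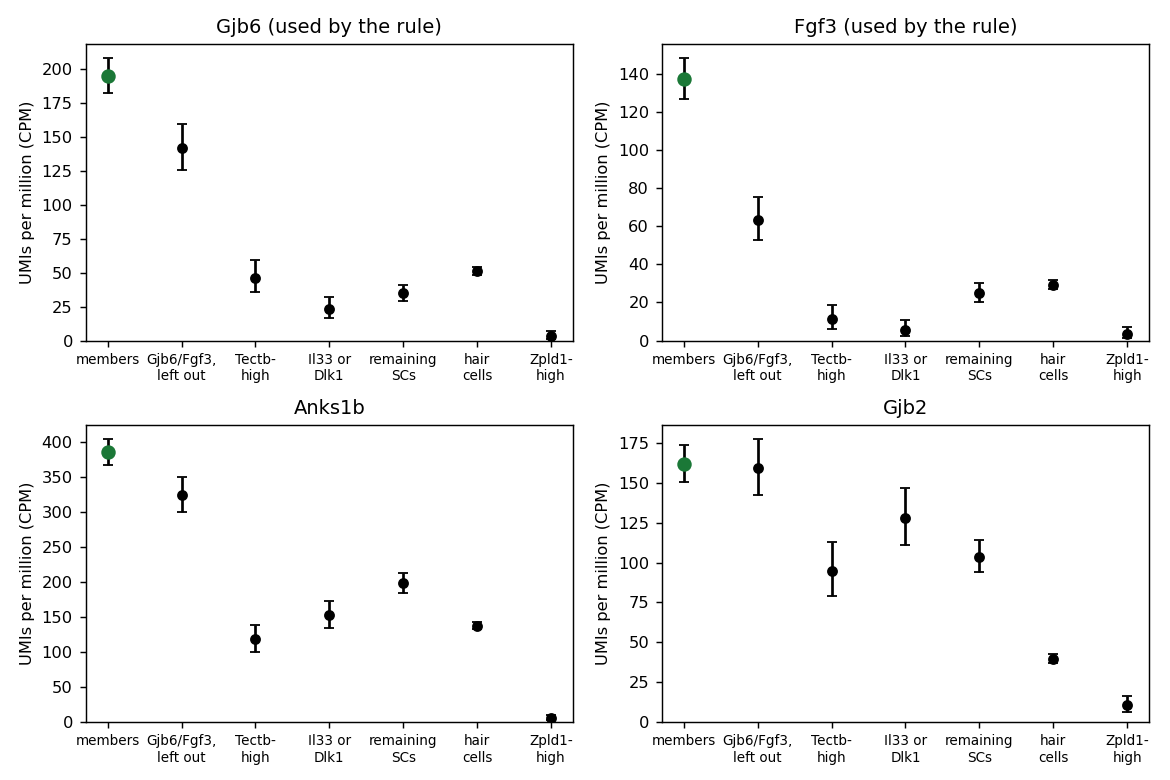
Levels of Gjb6, Fgf3, Anks1b and Gjb2 in CPM (y axes, each from 0) in members (green), in 4 subsets of the other P2 supporting cells (SCs), in hair cells and in Zpld1-high cells. Bars are exact 95% Poisson intervals; all 4 genes were highest in members, with Gjb2 at 162 in members and 159 in the left-out cells.

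The label was checked against defining markers. The SC genes Sox9 (615 CPM), Otog (940 CPM), Tecta (491 CPM) and Slc1a3 (431 CPM) were all present in members. The whole list of 24 HC markers summed to 573 CPM in members and 717 CPM in the other SCs, with 1 marker at 0 in members. This sum includes Pou4f3 and Atoh1, which the rule held to at most 1 UMI each per SC, so it was partly set by the rule. The 14 HC markers that could be compared, all outside the rule, had a median log2 ratio of -0.60. Of the 14, 3 had ratios above 1, namely Grp (1.05), the myosin gene Myo6 (1.32) and the calcium buffer gene Calb2 (1.50, 1.17 to 1.92, at 25.5 CPM in members and 392 CPM in HCs). Mesenchyme markers summed to 8.999 CPM in members and 38.4 CPM in the other SCs, with Col1a2 at 1 UMI in all members, and 3 of the 10 were at 0. The 18 markers of glia, immune, endothelial, pigment, blood and nerve cells summed to 39.7 and 38.3 CPM, with 7 at 0 in members, and 7 of 238 members held any UMI of the 5 immune markers. The nonsensory epithelium markers were not absent, since the otoconial matrix gene Oc90 reached 1981 CPM in members and 1721 CPM in the other SCs, while Slc26a4 and Lmx1a were lower in members.

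The limit of 3 UMIs did not coincide with a step upward beyond the counting intervals in Anks1b, Lfng, Mfng or Cyp2s1. Among SCs that met the Tectb, Il33 and Dlk1 limits, the cells just outside it (67 cells with 2 UMIs of Gjb6 and Fgf3, median depth 10348) had 350 CPM of Anks1b (310 to 394), and those just inside (59 cells with 3 UMIs, median depth 10244) had 356 CPM (313 to 403). Cells with 0 and 1 UMIs stood at 115 and 227 CPM, those with 4 at 309 CPM (272 to 348) and those with 5 or more at 413 CPM. S100b, a calcium-binding protein gene, went from 305 CPM at 0 UMIs through 451, 600, 706 and 842 CPM to 895 CPM at 5 or more. Lfng stood at 34.3, 72.0, 106, 96.1, 89.3 and 137 CPM over the same 6 classes, Mfng at 14.0, 19.5, 50.9, 54.5, 40.5 and 76.5 CPM, and Cyp2s1 at 11.4, 16.5, 36.9, 23.0, 42.9 and 49.0 CPM. S100b was higher at every step, while the other 4 genes were lowest at 0, highest at 5 or more and without a steady order from 2 to 4 UMIs. Median depth also went from 7715 UMIs at 0 to 19550 at 5 or more. S100b, Lfng, Mfng and Cyp2s1 were picked for this description after their values were seen.

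Across the transcriptome, 10966 genes outside the rule held at least 50 UMIs in members and other SCs together. Of these, 61 were at least 2-fold higher in members (0.556%) and 301 at least 2-fold lower (2.74%). The intervals of all of them left out equal levels, but the limits of 50 UMIs and 2-fold nearly fix that outcome. At a limit of 1.5-fold the counts were 348 higher (3.17%) and 789 lower (7.19%). The median log2 ratio of all tested genes was -0.04. Against the 685 other SCs as 1 group, differences toward higher levels were thus few and modest, and the larger ones ran toward lower levels. The balance of these counts depended on the comparison group. Against the remaining SCs alone 84 genes were at least 2-fold higher and 253 lower, and against the left-out cells 78 and 68. Against Tectb-high cells the counts were 330 higher and 194 lower, and against Il33 or Dlk1 cells 415 and 223.

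The gene with the highest ratio was Mfng, a glycosyltransferase of the Fringe family that modifies Notch receptors. It stood at 66.5 CPM in members and 19.9 CPM in the other SCs (ratio 3.35, 2.77 to 4.05). HCs held more of it, 80.6 CPM, and thinned shares were 20.7% of members, 9.21% of other SCs and 26.9% of HCs. Cyp2s1, a cytochrome P450 enzyme, followed at 43.9 against 13.7 CPM (ratio 3.20, 2.54 to 4.03). Entpd1, an ectoenzyme that breaks down extracellular ATP, stood at 20.0 against 6.48 CPM (ratio 3.08, 2.19 to 4.36), but at a ratio of 1.92 against the remaining SCs and 1.54 when members were chosen per 10,000 UMIs.

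Among signalling genes, Fgfr4, a receptor for fibroblast growth factors, was at 25.2 against 8.60 CPM (ratio 2.94, 2.18 to 3.97). Bmp6, a bone morphogenetic protein ligand, was at 14.7 against 5.58 CPM (ratio 2.63, 1.80 to 3.88, and 1.70 against the remaining SCs). Lgr6, an R-spondin receptor, was at 16.9 against 7.04 CPM (ratio 2.40, 1.70 to 3.41), and the G-protein regulator Rgs20 at 30.5 against 11.2 CPM (ratio 2.73). Kcnq3, a voltage-gated potassium channel subunit, reached 21.3 against 7.59 CPM (ratio 2.80), and the opsin gene Opn3 18.2 against 7.26 CPM (ratio 2.51). The other 6 of the 15 genes with the highest ratios were S100a14, Pxdc1, Nxph3, Nrip3, Hs3st3b1 and Emilin2, with ratios from 2.43 to 2.78. All 15 had their highest level among the 5 subsets of SCs in the members, which their choice from these same cells favours. They were low-abundance transcripts, found without thinning in 17.2% (Bmp6) to 52.9% (Mfng) of members.

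The 15 genes with the lowest ratios ran from Apoa4 (0.0237, 0.00284 to 0.0869, with 2 UMIs in all members and 166 in the other SCs) to Wscd1 (0.201). Cldn24, a claudin, had 2 UMIs in members and 105 in the other SCs (ratio 0.0374, 0.00447 to 0.139). Cpa6, a carboxypeptidase, had 3 and 134 (ratio 0.0440, 0.00896 to 0.131). Gata2, a zinc finger transcription factor, was at 5.49 against 32.1 CPM, and the extracellular matrix genes Hspg2 (perlecan) and Eln (elastin) at 2.85 against 17.2 and 4.17 against 25.1 CPM. The others were Gchfr, Fam19a1, Itgbl1, Fgf14, Tmem176a, Itih5, Pde4d and Apoc1, with ratios from 0.0764 to 0.197. Of these 15 genes, 13 were highest in Il33 or Dlk1 cells and Cpa6 in Tectb-high cells (58.2 CPM), both of which the rule kept out of the members. Set against each subset alone, all 15 were at least 2-fold lower than in Il33 or Dlk1 cells and in the remaining SCs, and 13 than in the left-out cells. The remaining SCs met the same Tectb, Il33 and Dlk1 limits as the members, and against them the 15 ratios ran from 0.0161 to 0.175. These genes too were picked from the same cells, so such counts only describe them. Against Tectb-high cells 10 of the 15 had ratios below 1 and 4 passed 2-fold, and 5 of the 15 were lowest in Tectb-high cells.

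**Figure D3:**
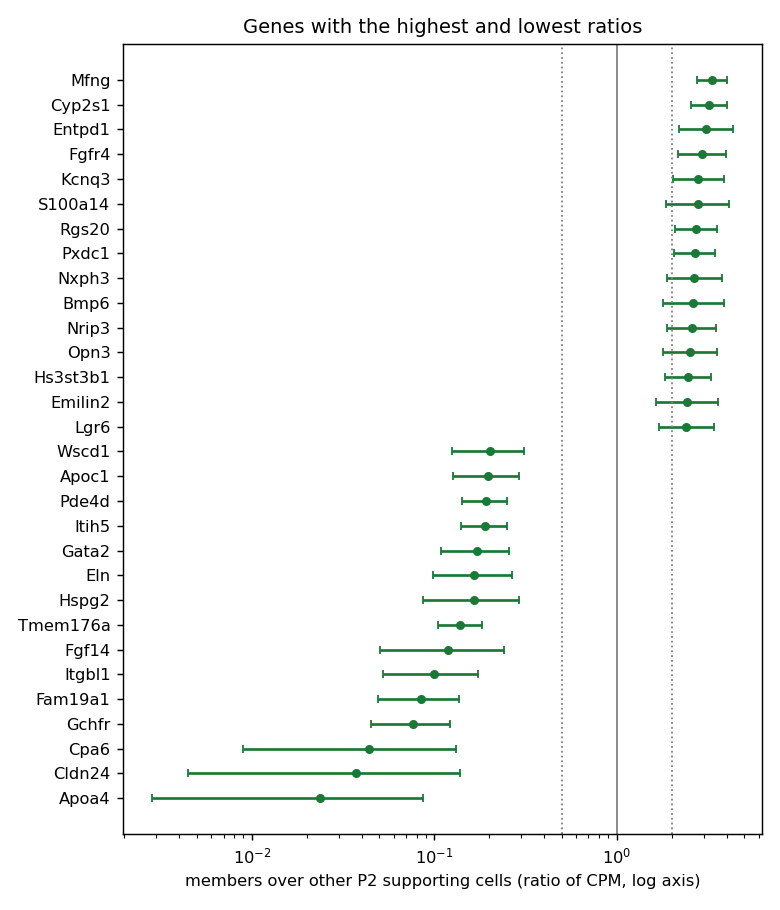
Ratio of the level in members to that in the other P2 supporting cells (x axis, log scale) for the 15 genes with the highest and the 15 with the lowest ratios, with exact 95% binomial intervals as bars. Solid and dotted lines mark equal levels and 2-fold differences; the ratios run from 0.0237 for Apoa4 to 3.35 for Mfng.

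Against each subset alone, the members differed least from the left-out cells, with 78 of 9143 genes at least 2-fold higher and 68 lower. Against the remaining SCs, 84 of 9954 genes were higher and 253 lower. Against Tectb-high cells 330 of 8906 were higher and 194 lower, and against Il33 or Dlk1 cells 415 of 9010 were higher and 223 lower. Among these subsets, lower genes thus outnumbered higher ones only against the remaining SCs. All 15 genes with the highest ratios lay above 1 in each of the 4 comparisons, and 11, 13, 13 and 15 of them passed 2-fold against left-out, Tectb-high, remaining, and Il33 or Dlk1 cells.

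Several transcripts of the Notch pathway were higher in members. The median log2 ratio of the 23 tested genes of this list was 0.19. Of them, 4 were at least 2-fold higher and 0 lower, against 0.556% and 2.74% of all tested genes. Beside Mfng, these were Lfng (122 against 52.9 CPM, ratio 2.31, 2.04 to 2.61), another Fringe gene, and the target genes Hes5 (107 against 51.6 CPM, ratio 2.07) and Heyl (107 against 52.5 CPM, ratio 2.04). The targets Nrarp (ratio 1.79, 1.56 to 2.05) and Hes1 (416 against 252 CPM, ratio 1.65, 1.55 to 1.75) were higher by less than 2-fold. The receptor Notch1 (ratio 1.09, 0.999 to 1.18) and the target Hey1 (1.14, 1.03 to 1.26) were close to equal, and the ligand Jag1 had a ratio of 1.34. Rfng, the third Fringe gene, stood at 11.9 and 12.6 CPM. Thinned shares for Lfng were 43.9% of members, 22.6% of other SCs and 17.3% of HCs.

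The 19 tested SC identity genes had a median log2 ratio of 0.37. Of them, 2 were at least 2-fold higher and 0 lower, against 0.556% and 2.74% of all tested genes. Both, Hes5 and Lfng, are also in the Notch list. The glutamate transporter gene Slc1a3 had a ratio of 1.63, the matrix gene Otog 1.35 and the transcription factor Sox9 1.30. S100a1, a calcium-binding protein gene that HCs also carry (4305 CPM), stood at 3231 CPM in members and 1742 CPM in the other SCs. Sox10 had a ratio of 0.849. S100b, outside the lists and named after its value was seen, was at 857 against 363 CPM (ratio 2.36, 2.25 to 2.47).

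The 17 tested overlying matrix and otoconia genes had a median log2 ratio of 0.28. Of them, 2 were at least 2-fold higher and 0 lower, against 0.556% and 2.74% of all tested genes. They were Fndc7 (ratio 2.10) and Fibin (ratio 2.26), which were placed in this list because they led a cluster in earlier results of these data. Their count beside the share of all tested genes therefore supports nothing, and the median includes both. No other tested gene of the list passed 2-fold. The otoconial scaffold gene Otol1 was at 2024 and 1986 CPM, a ratio of 1.02, and Tecta also had a ratio of 1.02. Members thus resembled the other SCs in the main otoconial genes.

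Of the connexins and pannexins, 4 genes beside Gjb6 could be tested, with 0 past 2-fold in either direction. Over all tested genes the shares were 0.556% higher and 2.74% lower. Gjb2 (chr14:57098600-57104702, minus strand), the partner of Gjb6 in SC gap junctions, was at 162 CPM (150 to 174) in members and 119 CPM (112 to 126) in the other SCs, a ratio of 1.36 (1.24 to 1.50). It was at 39.7 CPM in HCs. Gjc1 had a ratio of 1.35, and Gja1, which held too few UMIs for the comparison, had 4 UMIs in members (ratio 0.302, 0.0767 to 0.872). Among SC subsets, Gjb2 ranged from 94.7 CPM in Tectb-high cells to 162 CPM in members.

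The 6 tested FGF ligands other than Fgf3 had a median log2 ratio of -1.09. Of them, 0 were at least 2-fold higher and 3 lower (Fgf12, Fgf13 and Fgf14), against 0.556% and 2.74% of all tested genes. These 3 encode intracellular FGF homologous factors that bind sodium channels and are not secreted. The secreted ligands Fgf10 and Fgf9 had ratios of 1.17 (1.01 to 1.36) and 0.780 (0.616 to 0.983). The 19 tested FGF receptor and feedback genes had a median log2 ratio of -0.44. Of them, 1 was at least 2-fold higher (Fgfr4) and 4 were lower, against the same shares of all tested genes. Those lower were the transcription factors Etv4 (11.4 against 23.9 CPM, ratio 0.478) and Etv5 (13.4 against 31.7 CPM, ratio 0.422), which FGF signalling is known to induce, the receptor Fgfr2 (4 UMIs in members, ratio 0.0983, 0.0261 to 0.262) and Flrt2 (ratio 0.343). The feedback inhibitors Dusp6, Spred1 and Spry2 had ratios of 0.630, 0.646 and 0.598. Fgfrl1, a receptor that lacks the kinase domain, had a ratio of 1.44, and the receptor Fgfr1 stood at 67.4 and 72.3 CPM.

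**Figure D4:**
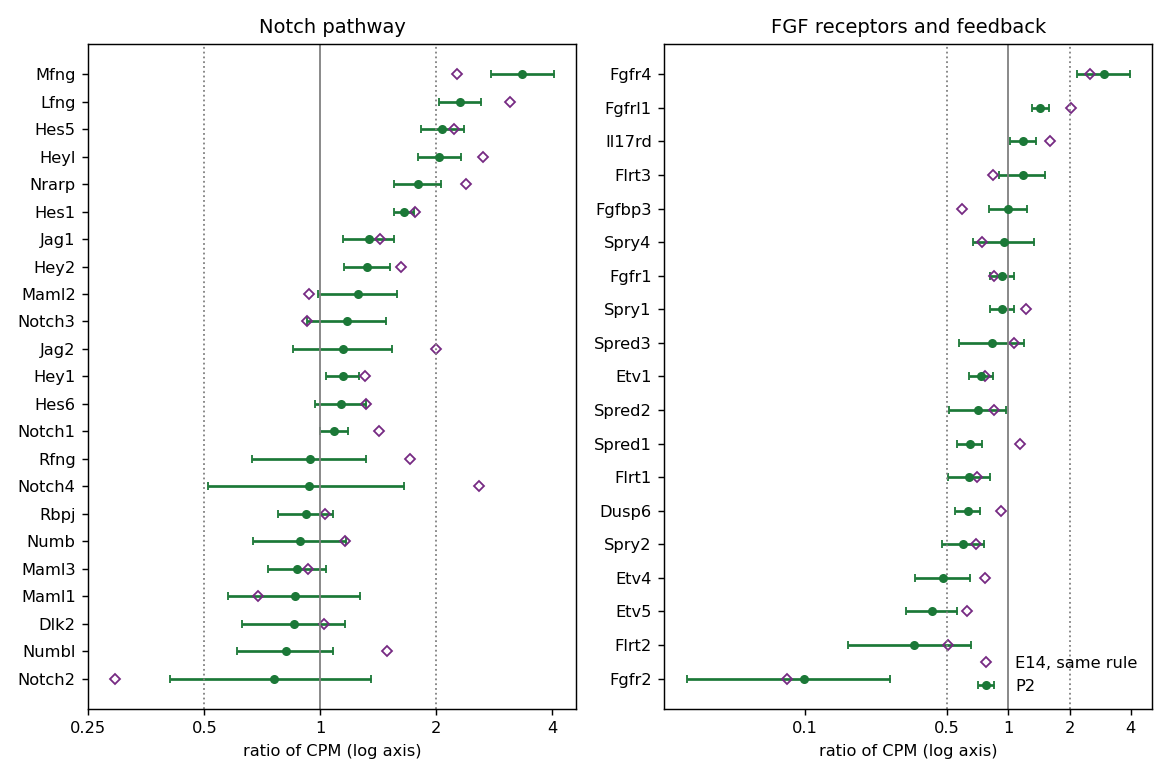
Ratio of the level in members to that in the other supporting cells (x axes, log scale) for tested genes of the Notch pathway list (left) and of the FGF receptor and feedback list (right). Green points with exact 95% binomial intervals are P2, open purple diamonds the same rule at E14, drawn without their intervals; Mfng, Lfng, Hes5 and Heyl lie past 2-fold at both ages and Fgfr4 does too, while Etv4 and Etv5 lie below 0.5 at P2 only.

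The counts of the next groups are to be read against 0.556% of all tested genes at least 2-fold higher and 2.74% lower, which for lists of this size is at most about 1 gene, so that a single gene says nothing of its group. In the Wnt pathway 1 of 34 genes was at least 2-fold higher (Lgr6) and 3 were lower, with a median log2 ratio of -0.11. Lgr5, a paralog of Lgr6, was at 24.6 against 12.4 CPM (ratio 1.98, 1.51 to 2.60), the receptor Fzd4 had a ratio of 1.80, and the secreted protein gene Dkk3 1.81. Those lower were the ligand Wnt4 and the secreted inhibitors Sfrp2 (ratio 0.479) and Wif1 (2 UMIs in members, ratio 0.0405, 0.00484 to 0.150). In the BMP and TGF-beta pathway 2 of 29 were higher and 1 lower (median log2 ratio -0.06). These were Bmp6 and Inhba, which encodes an activin subunit (108 against 51.9 CPM, ratio 2.08, 1.82 to 2.36), and the receptor gene Tgfbr2 (ratio 0.393). Bmp4 was scarce in both groups, with 18 UMIs in members and a ratio of 0.956 (0.512 to 1.72). The BMP target Id3 had a ratio of 0.876.

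Further gene groups held no member at least 2-fold higher, and over all tested genes the shares were 0.556% higher and 2.74% lower. Of 14 IGF and neurotrophin genes 5 were lower (Igfbp6, Bdnf, Ntrk2, Nrtn and Ret). Ret had 0 UMIs in members, which against the floor of 3 counts puts it at least 9.33-fold lower. Of 13 retinoic acid genes 2 were lower, the degrading enzyme Cyp26b1 (10.3 against 38.6 CPM, ratio 0.267), known as a striola gene, and the binding protein Crabp2 (ratio 0.316). The synthesizing enzyme Aldh1a3 was at 387 and 574 CPM. Of 24 regional transcription factors 3 were lower (Gata2, Lmx1a and Nr2f1). Of 28 ion transport genes 3 were lower, the anion exchanger Slc26a4 (27.7 against 118 CPM, ratio 0.235), the sodium pump subunit Atp1b1 (126 against 327 CPM, ratio 0.384) and Car13.

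Of 27 junction, cadherin and claudin genes 4 were lower (Cldn4, Cldn8, Pcdh17 and Pcdh19), against a share of 2.74% over all tested genes. Cdh4, coding for a classical cadherin, was at 197 against 99.2 CPM (ratio 1.99, 1.81 to 2.18) and missed the limit. Of 33 guidance genes 1 was lower (Sema3c, 2 UMIs in members, ratio 0.0462, 0.00551 to 0.172), near that share. Of 21 postsynaptic and adhesion scaffold genes 3 were lower (Homer2, Lrrtm1 and Nlgn1). Of 5 tested nonsensory epithelium markers 2 were lower (Lmx1a and Slc26a4), as were all 3 tested mesenchyme markers (Col1a2, Otor and Dcn).

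The 16 tested S and G2/M genes had a median log2 ratio of -0.55. Of them, 5 were lower (Mki67, Top2a, Cdk1, Cenpf and Ccnd2) and 0 higher, against 2.74% and 0.556% of all tested genes. Cenpf had 6 UMIs in 5 of 238 members and 67 UMIs in 24 of 685 other SCs. These were 2.10% and 3.50% of the cells, so few cells carried its counts. The whole list summed to 674 CPM in members and 828 CPM in the other SCs. Mki67 had 3 UMIs in all members (ratio 0.120, 0.0240 to 0.373) and Cdk1 2 (ratio 0.0742, 0.00875 to 0.281), while the cyclin gene Ccnd2 was at 17.8 against 61.3 CPM (ratio 0.290). None of the 6 tested cell cycle inhibitors passed 2-fold, Cdkn1a having a ratio of 1.82 and Cdkn1b of 1.01. Of 20 AP-1 and dissociation stress genes 0 were higher and 1 lower (Klf2), and Fos (ratio 1.08), Jun (1.19) and Egr1 (1.03) were nearly equal in the 2 groups.

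The members were not uniform. Members with Gjb6 only (35 cells, median 10802 UMIs) and with Fgf3 only (17 cells, median 11243 UMIs) were set side by side for 2467 genes with at least 50 UMIs in the 2 groups together. In Gjb6-only cells 71 of these were at least 2-fold higher and 65 lower. Levels are sums of UMIs, so deep cells weigh most. The 17 Fgf3-only cells ranged from 6198 to 57347 UMIs, with 322757 in all. Hes5 was at 174 CPM in Gjb6-only members (13 of 35 cells) and 9.29 CPM in Fgf3-only members (3 UMIs, all in 1 cell), with 107 CPM in members that held both, a ratio of 18.8 (6.20 to 92.9). The glycoprotein gene Sparcl1 was at 984, 211 and 819 CPM in the same order (ratio 4.67, 3.61 to 6.12), and the synaptotagmin gene Syt1 at 112, 9.29 and 73.0 CPM.

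In the other direction, Bmp3, a BMP family ligand, was at 285 CPM in Fgf3-only members (92 UMIs in 10 of 17 cells, at most 23.9% from 1 cell), 2.15 CPM in Gjb6-only members (1 UMI) and 35.3 CPM in members with both. The matrix protein gene Cthrc1 was at 688, 86.1 and 134 CPM, and the growth factor gene Igf1 at 177 CPM (6 of 17 cells), 8.61 and 17.8 CPM. Epha5, an ephrin receptor, was at 204 CPM in Fgf3-only members and 17.2 CPM in Gjb6-only members. The phosphatase gene Ptpn5 had 34 UMIs in 9 Fgf3-only cells and 0 in Gjb6-only cells.

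The genes that set members apart from other SCs did not behave alike in the Fgf3-only cells. Mfng was at 6.20 CPM there (2 UMIs) against 43.1 CPM in Gjb6-only cells and 74.6 CPM in cells with both, and Anks1b at 211 CPM (164 to 267) against 368 CPM (315 to 428) and 402 CPM (382 to 423). Entpd1 was at 43.4 CPM in Fgf3-only cells against 21.5 and 17.8 CPM, Nrip3 at 27.9 against 19.4 and 22.0 CPM, Nxph3 at 18.6 against 15.1 and 17.8 CPM, and Fgfr4 at 21.7 against 21.5 and 26.0 CPM. Sox9 was at 595, 597 and 620 CPM. Part of these genes were thus lower in the 17 Fgf3-only cells and part were not, with at most 14 UMIs behind each of Entpd1, Nrip3, Nxph3 and Fgfr4 there. Hes5, Sparcl1, Syt1, Bmp3, Cthrc1, Igf1, Epha5 and Ptpn5 were named here after their values were seen.

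The E14 library was not used to set the rule. The same limits picked 83 of its 640 SCs (median 15109 UMIs, against 9981 in the other 557). Anks1b was at 129 CPM in these cells and 45.6 CPM in the other E14 SCs, a ratio of 2.83 (2.38 to 3.36), and Gjb2 at 224 and 91.6 CPM (ratio 2.45, 2.15 to 2.78). Both ratios were above those at P2. In the cells that the rule picked, Fgf3 was at 217 CPM at E14 and 137 CPM at P2, and Gjb6 at 49.6 CPM and 195 CPM. Fgf3 thus gave most of the sum in the picked E14 cells and Gjb6 in the P2 members. The rule chose cells by this sum, so these levels describe the picked cells and support nothing about the libraries.

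Of the 61 genes at least 2-fold higher in members at P2, 39 held enough UMIs at E14. Of these 33 (84.6%) had a ratio above 1 there, against 54.9% of all 10231 genes tested at both ages. At E14 1.79% of 10836 genes were at least 2-fold higher, and 17 of the 39 were (43.6% of these, and 10.1% of the 168 genes higher at E14 that could be compared). Among the 17 were Lfng (ratio 3.11 at E14), Cyp2s1 (3.13), Nrip3 (3.103), Inhba (2.87), Heyl (2.64), Fgfr4 (2.53), Fibin (2.38), Mfng (2.26) and Hes5 (2.22). The 2 E14 groups also differed in markers of other cell types, as given below. Of 18 tested SC identity genes, 5 were at least 2-fold higher in the picked E14 cells and 1 was lower. The part of these differences in the genes higher at both ages was not tested. Kcnq3 (ratio 0.389 at E14, with an interval of 0.103 to 1.04 that holds equal levels) and the long noncoding RNA gene Rmst had ratios at or below 0.5 at E14. Etv4, Etv5, Dusp6 and Spred1 had E14 ratios of 0.764, 0.628, 0.917 and 1.14, each nearer to equal levels than at P2.

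Of the 301 genes at least 2-fold lower in members at P2, 222 could be compared at E14, where 4.23% of all tested genes were lower. At E14 81 of them were also at least 2-fold lower (36.5% of these, and 27.7% of the 292 genes lower at E14 that could be compared), and 1 was at least 2-fold higher. Among the genes with the lowest P2 ratios, all 14 that could be compared were below 1 at E14 and 10 passed 2-fold, Gata2 with a ratio of 0.193. The proliferation genes Ccnd2 (0.370) and Cenpf (0.490) were past 2-fold, and Mki67 was not (0.700). Markers of other cell types moved with this result. At E14 7 of 10 tested mesenchyme markers, 9 of 13 HC markers and 6 of 10 nonsensory epithelium markers were at least 2-fold lower in the cells picked by the rule, and the mesenchyme gene Otor stood at 685 against 1403 CPM. Their part in the result was not tested. Immune transcripts were found in 9 of the 83 E14 cells (10.8%) and 32 of the other 557 (5.75%). Without those cells 17 of the higher and 83 of the lower genes passed 2-fold at both ages.

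**Figure D5:**
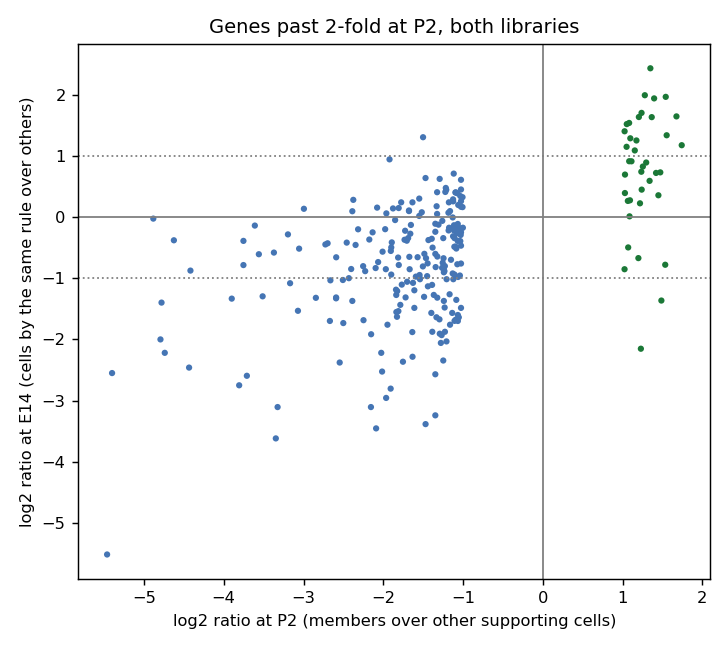
Log2 ratio of cells chosen by the rule to the other supporting cells at P2 (x axis) and E14 (y axis) for the 39 genes at least 2-fold higher (green) and the 222 at least 2-fold lower (blue) at P2 that could be compared at E14. Dotted lines mark 2-fold at E14; 33 green points lie above 0, 17 of them past the dotted line, and 81 blue points lie below the lower dotted line.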

How the data were processed

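Raw UMI counts per gene and barcode were deposited by the authors for 1 library at each age, made with Cell Ranger 3.1.0. The study's methods give GRCm39 and the submitters' processing notes also mm10, which was not settled. Of 31053 gene identifiers, 30934 were in the GENCODE M21 annotation. The authors' Seurat 4.1.1 steps are not contained in these counts and were not repeated. Doublets were scored by a Scrublet-type simulation and marked, not removed.

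Counts were summed over cells and scaled to 1000000. Genes outside the 10 genes of the rule with at least 50 UMIs in both groups together were compared, with a limit of 2-fold. Named were the 3 given markers, the genes of the rule, the 15 genes with the highest and the 15 with the lowest ratios (at least 100 UMIs, in at least 10% of the cells of the higher group, without gene models and mitochondrial, ribosomal and haemoglobin genes), and of each of 22 lists (562 genes) the 4 most abundant and those past 2-fold. Exceptions are stated beside the values. The members and lists were chosen with earlier results of these data known. The scripts were tested on simulated data. Software was Python 3.11.15 with matplotlib 3.10.9, scikit-learn 1.9.0, scipy 1.17.1, numpy 2.4.6 and pandas 2.3.3.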

Additional observations from a re-analysis of the deposited data

How the results depend on the processing

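The members were 126 at a limit of 5 UMIs of Gjb6 and Fgf3, 118 within their own middle depth range (10367 to 22728 UMIs, with 224 other SCs), and 39, of which 33 were members before, when the rule was applied to cells thinned to 4000 UMIs. Genes at least 2-fold higher numbered 61, against 159 with the thinned rule, 1828 with no filter on low counts and 348 at a limit of 1.5-fold (3.17% of genes). Those lower numbered 301, against 914, 1171 and 789 (7.19%) in the same order, 174 in the middle depth range and 466 with a mean over cells in place of summed UMIs. Settings with other cells or with no filter tested other numbers of genes, so their counts cannot be compared as shares. The Anks1b ratio was 1.87, 2.07 with limits per 10,000 UMIs, 1.68 with the thinned rule and 2.25 in the middle depth range. With the thinned rule Nrip3 (0.964), Apoa4 (3.33), Cldn24 (1.92) and Fgf14 (1.02) crossed equal levels, and 6 of the 15 genes with the highest and 6 of the 15 with the lowest ratios still passed 2-fold, with Mfng at 1.53, Cyp2s1 at 1.81, Entpd1 at 1.16, Fam19a1 at 0.772 and Eln at 0.927. The thinned rule read its transcript limits, that on Il33 and Dlk1 included, at 4000 UMIs per cell, and its comparison group was 550 cells. It thus changed the cells on both sides of the ratio, and the cause of these shifts was not tested. Under the other alternatives (a limit of 2 UMIs, doublet-marked cells left out, Pou4f3 and Atoh1 at 0, 10% mitochondrial UMIs, the remaining SCs as comparison, another scaling, and those above) all 15 genes with the highest ratios stayed above 1 and all 15 with the lowest below it, but not all kept 2-fold. With limits per 10,000 UMIs 11 of the 15 highest passed (Entpd1 1.54, Nrip3 1.42 and Bmp6 1.78 among those that did not), with a mean over cells 12 (S100a14 1.60), and 13 each in the middle depth range, against the remaining SCs and with Pou4f3 and Atoh1 at 0. In the middle depth range Kcnq3 went from 2.80 to 12.8 and Mfng from 3.35 to 5.03, while Nrip3 was 1.55 and Bmp6 1.74. All 15 of the lowest passed in each of these. Leaving out E14 cells with immune transcripts was added after seeing the data. No paired analysis was possible because each age has 1 library, and for the same reason no replicate could be left out. Of 330 single-gene values under these alternatives 271 moved by less than their interval, 55 moved by more but stayed on the same side of equal levels, and 4 crossed equal levels. Among the 55 were shifts toward equal levels (Entpd1 from 3.08 to 1.16) and away from them (Kcnq3 from 2.80 to 12.8). Genes with fewer than 50 UMIs were not compared.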
